A study of Mus musculus with 6 samples.

Results

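Globins and the enzymes that make and break down heme were followed in hippocampal RNA of wild-type (WT) mice sampled 24 hours after cerebral ischemia-reperfusion, in which the brain's blood supply is interrupted and then returns. The members are 10 genes chosen by name, of 55471 genes in the authors' table: Hba-a1, Hba-a2, Hbb-bs and Hbb-bt for the globin chains, Alas1, Alas2, Cpox and Fech for heme synthesis, and Hmox1 and Blvrb for heme breakdown. The study has 2 groups, Visudyne (n = 3) and Saline (n = 3), and all 6 samples had the ischemia and reperfusion, with no sample of uninjured tissue. Visudyne, which contains the light-activated drug verteporfin, was the treatment by which the study ablated meningeal lymphatic vessels. The labels do not give age, sex, strain, the brain side sampled, or whether each sample is 1 mouse, so the p-values may rest on technical spread alone.

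Hemoglobin is built from alpha and beta globin chains, each carrying a heme, an iron-bound porphyrin. Globin messengers and the erythroid first enzyme of heme synthesis, ALAS2, are made in red cell precursors and persist in reticulocytes, while its housekeeping counterpart ALAS1 works in the mitochondria of other cells. The globin chain members and Alas2 are therefore called red cell transcripts below, but which cells held them in this tissue was not tested. All cells that make heme need the later enzymes, among them CPOX and ferrochelatase, and heme oxygenase 1 opens the ring to biliverdin, which biliverdin reductases turn into bilirubin. In brain, heme from blood that leaves its vessels is known to induce Hmox1 in glia and macrophages.

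The deposited values are the authors' comparison of the groups: 1 mean normalized count per gene over the 6 libraries, a log2 fold change, its error and p-values. The table does not say which treatment is on top of the ratio, so directions are given as positive or negative and not as higher in either treatment. The deposited fold changes are shrunken toward 0, those of 9 of the 10 members to within 0.013 of it, and values below are unshrunken log2 fold changes with their standard errors, back-calculated from the deposited fold change, error and p. The size factors of the libraries, recovered from the lowest means, ran from 0.584 to 1.52, and total reads per library were not used here. A gene is called where the authors' adjusted p is under 0.05. Markers of hippocampal neurons were present, with all 9 tested at means of 518 to 5804 normalized counts. Of these, 6 were negative and 3 positive, none called, with the lowest p for Bok (-0.41 ± 0.18), Prox1 (-0.29 ± 0.13), Zbtb20 (-0.25 ± 0.12) and Neurod6 (-0.39 ± 0.20). Their median was -0.25 without Calb1, a positive gene for which no unshrunken value could be back-calculated. On the negative side, 12 of 12 microglia markers had negative values (median -0.48, with Fcrls and Itgam called), as had 8 of 8 oligodendrocyte markers (median -0.36, with Ermn called). On the positive side stood 8 of 8 meningeal fibroblast markers (median 1.09, with Fmod, Slc22a6, Slc6a13 and Dcn called) and 8 of 8 choroid plexus markers (median 1.51, none called). Astrocyte markers were split, 4 negative and 4 positive, and the part of all these cells in the values below was not tested. In bulk RNA, fewer cells of a type and less RNA per cell cannot be told apart.

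No member passed the authors' adjusted p of 0.05, where 0.328% of the 18603 tested genes did, 0.145% with negative and 0.183% with positive values. All 5 red cell transcripts, the 4 globin chains and Alas2, had negative values, with a median log2 fold change of -0.60. These 5 signs are not independent observations, since all come from the same libraries. Hbb-bs with Hbb-bt and Hba-a1 with Hba-a2 are also near-identical copies. The other 5 members, the enzymes of heme synthesis and breakdown that are not restricted to red cells, lay close to 0, with a median of -0.08 and 2 positive and 3 negative values. Over the 18445 tested genes with a back-calculated value the median was 0.0026, and 49.5% of all tested genes were negative. At an unadjusted p under 0.05, 2 members passed, Hbb-bs and Hbb-bt, both negative, where 6.81% of all tested genes passed, 2.89% with negative and 3.92% with positive values. At an adjusted p under 0.1 Hbb-bs passed, where 0.624% of all tested genes did and 0.296% on the negative side.

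**Figure D1:**
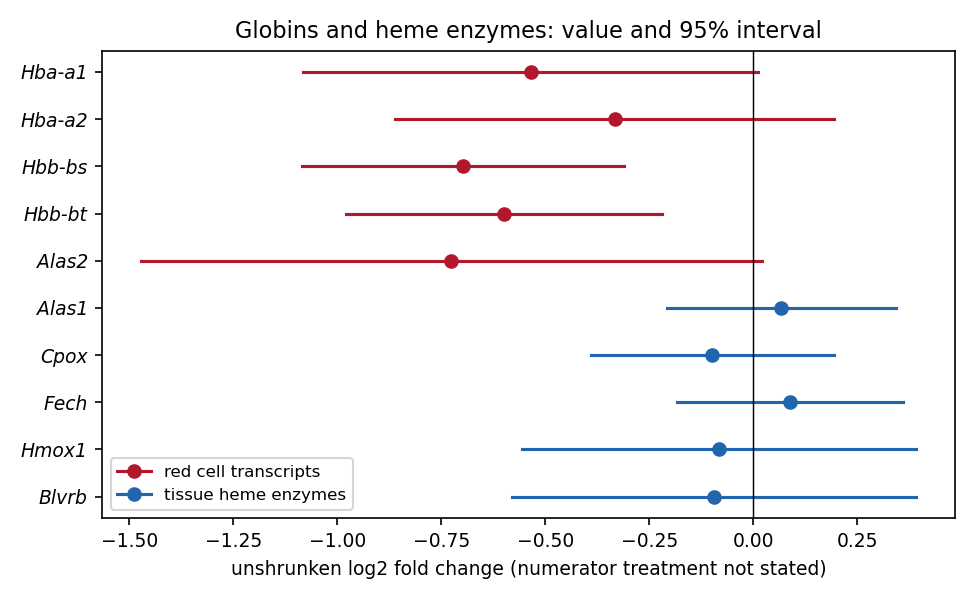
Unshrunken log2 fold change (x axis) of the 10 members with 95% intervals (lines), red cell transcripts in red and other heme enzymes in blue. The red points lie between -0.73 and -0.33, and the blue points between -0.10 and 0.09.

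The globin genes come as near-identical copies, and the sequences show what the counting had to tell apart. In the GENCODE M21 transcripts the coding sequences of Hbb-bs and Hbb-bt, 444 bases each on chromosome 7, differed at 1 base, C417T, counted from the first coding base with the Hbb-bs base first. Those of Hba-a1 and Hba-a2, 429 bases each on chromosome 11, also differed at 1 base, C381T, with the Hba-a1 base first. The coding stretch around each difference is printed 5′ to 3′, with the differing base in capitals.
Hbb-bs: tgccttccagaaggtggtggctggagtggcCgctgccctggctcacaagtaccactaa
Hbb-bt: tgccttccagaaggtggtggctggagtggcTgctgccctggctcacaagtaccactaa
Hba-a1: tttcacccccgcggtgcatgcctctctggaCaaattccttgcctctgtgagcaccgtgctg
Hba-a2: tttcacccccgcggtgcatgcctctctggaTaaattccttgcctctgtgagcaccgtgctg
Of all windows of 150 bases, the labelled read length, 58.7% of the Hbb-bs transcript occurred unchanged in Hbb-bt and 50.7% of Hbb-bt in Hbb-bs. For the alpha chains these shares were 48.4% of Hba-a1 and 65.7% of Hba-a2. Each share covers single windows of a single transcript per gene. The reads came in pairs, so the shares are not those of read pairs matching both copies. How reads matching both copies were counted is not stated, so values within each pair are uncertain and the pairs are best read together.

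The beta chain genes were the members farthest from 0 relative to their error. In the authors' deposited table Hbb-bs (ENSMUSG00000052305) averaged 1611 normalized counts over the 6 libraries (adjusted p = 0.0841). Its unshrunken log2 fold change was -0.70 ± 0.20 (SE), a 1.62-fold difference with a 95% interval of -1.09 to -0.31. That size rests on the scale inferred for the authors' shrinkage, being -0.22 with the scale halved and -2.60 with it doubled, while the p does not. By p the gene was number 90 of all tested genes. In the authors' deposited table Hbb-bt (ENSMUSG00000073940) averaged 500.2 normalized counts (adjusted p = 0.183), and its shrunken log2 fold change was -0.43. Its value was -0.60 ± 0.19, a 1.52-fold difference with an interval of -0.98 to -0.22. Both intervals lie below 0, but neither gene passed the threshold over all genes.

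The alpha chain genes had the same sign with wider errors. Hba-a1 (ENSMUSG00000069919), the most abundant member at 2073 normalized counts in the authors' deposited table, had -0.54 ± 0.28 (adjusted p = 0.744). Hba-a2 (ENSMUSG00000069917), with a mean of 932.5 in the authors' deposited table, had -0.33 ± 0.27 (adjusted p = 0.923). Their intervals, -1.08 to 0.01 for Hba-a1 and -0.86 to 0.19 for Hba-a2, include both no difference and the sizes seen for the beta chains. Whether the alpha and beta values differ was not tested, and no values per library could be recovered for the 4 globins.

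For Alas2 (ENSMUSG00000025270), the erythroid enzyme, single libraries could be seen. The mean of a gene with few reads is a sum of whole reads, each worth a fixed amount in its library, and for Alas2 exactly 1 combination of reads gives the deposited mean. The 6 libraries cannot be tied to sample names or treatments, but the fold change of genes read only in 1 library shows on which side of the authors' comparison each library stands: 3 on the positive side, called P1 to P3, and 3 on the negative side, N1 to N3. Alas2 had 80, 32 and 29 reads in P1, P2 and P3, against 137, 117 and 41 reads in N1, N2 and N3. After division by size factors these are 66.8, 30.3 and 49.6 normalized counts in P1, P2 and P3, against 90.3, 95.7 and 54.4 in N1, N2 and N3. N1 and N2 were above the other 4 libraries, while N3 lay below P1, so the sides overlap. The log2 ratio of these means is -0.71, and the back-calculated value is -0.73 ± 0.38 (adjusted p = 0.751 in the authors' deposited table). Leaving out 1 library at a time, the ratio ran from -1.0 (without P1) to -0.46 (without P2).

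**Figure D2:**
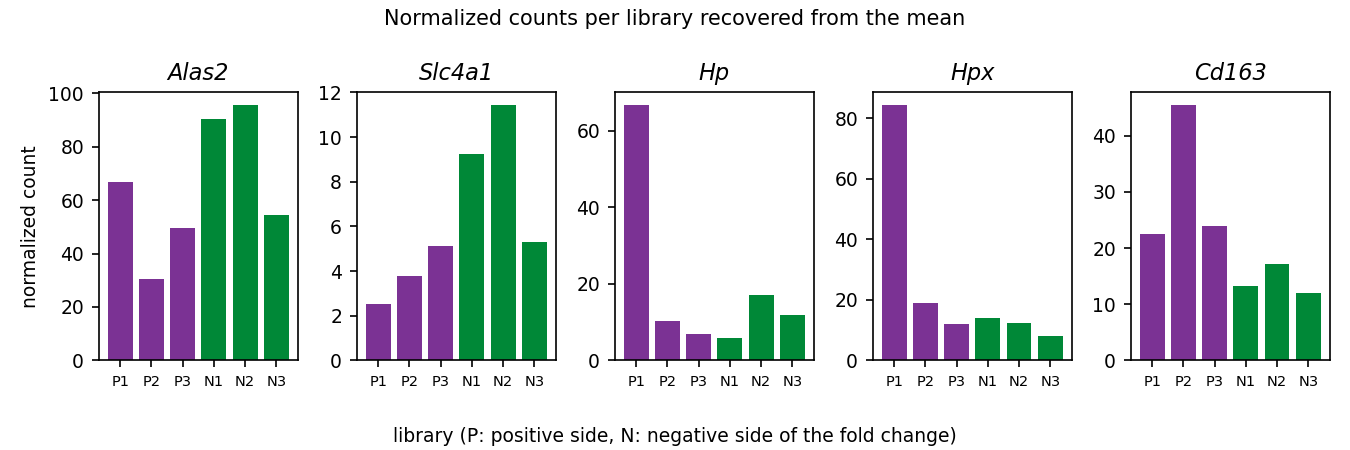
Normalized count (y axis, separate scale per gene) in each of the 6 libraries (x axis), with the positive side in purple and the negative side in green. Alas2 and Slc4a1 are higher in N1 and N2 than in any P library, and Hp and Hpx stand out in P1 with 66.8 and 84.4 normalized counts.

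Red cell genes with little expression outside blood had few reads. Of 20 genes of red cell membrane and maturation, 19 are in the table and 9 were tested. None was called, and 6 of the 9 were negative, with a median of -0.14. Ank1, an ankyrin, had the lowest p, with 0.33 ± 0.20, and Bpgm, the enzyme that makes bisphosphoglycerate, had -0.14 ± 0.14. Several of the tested genes are also expressed outside blood, such as Sptb, a spectrin chain, with 0.0042 ± 0.14, and Dmtn, an actin-binding protein, with -0.20 ± 0.15. Slc4a1, the red cell anion exchanger band 3, had 3, 4 and 3 reads in P1, P2 and P3, against 14, 14 and 4 reads in N1, N2 and N3. As normalized counts its P libraries lay at 2.51 to 5.14 and its N libraries at 5.31 to 11.4, so the sides did not overlap, by a narrow gap. Of 149 genes drawn at random at means of 20 to 40 normalized counts, a higher level than that of Slc4a1, the sides did not overlap in 13.4%. Its value was -1.27 ± 0.90 (adjusted p = 0.886 in the authors' deposited table). Klf1, the erythroid transcription factor, had 17 reads in all, and Epb42, a membrane skeleton protein, 4, all of them in N libraries. Trim10, a tripartite motif protein of erythroid cells that was not tested, separated the other way, with 3, 5 and 2 reads in P1, P2 and P3, against 1, 0 and 1 in N1, N2 and N3. Rhag, a membrane protein of the Rh complex, and Gata1, the erythroid GATA factor, are listed at 0. Summed over the 10 genes of the list with recovered reads, the P libraries held 18.4 to 34.1 and the N libraries 31.8 to 36.8 normalized counts.

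Markers of other blood cells were looked at beside these. Of 9 platelet markers 3 were tested, all negative, and the 8 with recovered reads summed to 63.5 to 90.7 normalized counts in the P libraries and 77.1 to 116 in the N libraries. Gp9, a platelet glycoprotein, had the lowest p of them, with -1.49 ± 0.76 (adjusted p = 0.730 in the authors' deposited table), followed by Itga2b, an integrin chain, with -0.21 ± 0.35, and Pf4, platelet factor 4, with -0.06 ± 0.65. Of 10 neutrophil markers 2 were tested, S100a8 with -0.37 ± 0.57 and S100a9 with -0.33 ± 0.57. The median of the 2 was -0.35, but that of all 10 genes with a p was 1.07. The 10 summed to 59.9 to 64.4 in the P libraries and 30.3 to 85.0 in the N libraries. Brain endothelial markers were split, 7 of 12 negative and 5 positive with a median of -0.18, none called. The lowest p was that of Emcn, endomucin, with -0.69 ± 0.32. At an unadjusted p under 0.05, 2 passed, Emcn and Flt1 (-0.47 ± 0.24), both negative, where 2.89% of all tested genes passed with negative values. The Emcn libraries lay at 35.1 to 47.9 in P and 63.0 to 72.5 in N, with no overlap. Among randomly drawn genes of lower means, 13.4% had none. The part of these cells, or of blood left in the vessels, in the globin values was not tested.

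Levels can be compared between genes only per length, here as the mean normalized count per kilobase of merged GENCODE M21 exons, scaled so that all genes sum to 1000000. On this scale Hba-a1 stood at 301, Hbb-bs at 247, Hba-a2 at 165 and Hbb-bt at 83.8 length-scaled units, with Hbb-bt at percentile 90.8 and Hba-a1 at percentile 97.9 of all tested genes. Alas2 stood at 3.16, below its housekeeping counterpart Alas1 at 23.1. The other heme enzymes lay between, with Hmox1 at 14.8, Cpox at 14.0, Fech at 12.3 and Blvrb at 7.76. These levels are means over both groups with no spread per sample, so their order was not tested. They also rest on the annotation, with merged exons of 667 bases for Hba-a2 and 13838 for Fech. Where merged exons are longer than the transcripts present, the level comes out too low. The 4 globins together made up 796 units, and the 5 enzymes not restricted to red cells 72.0.

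**Figure D3:**
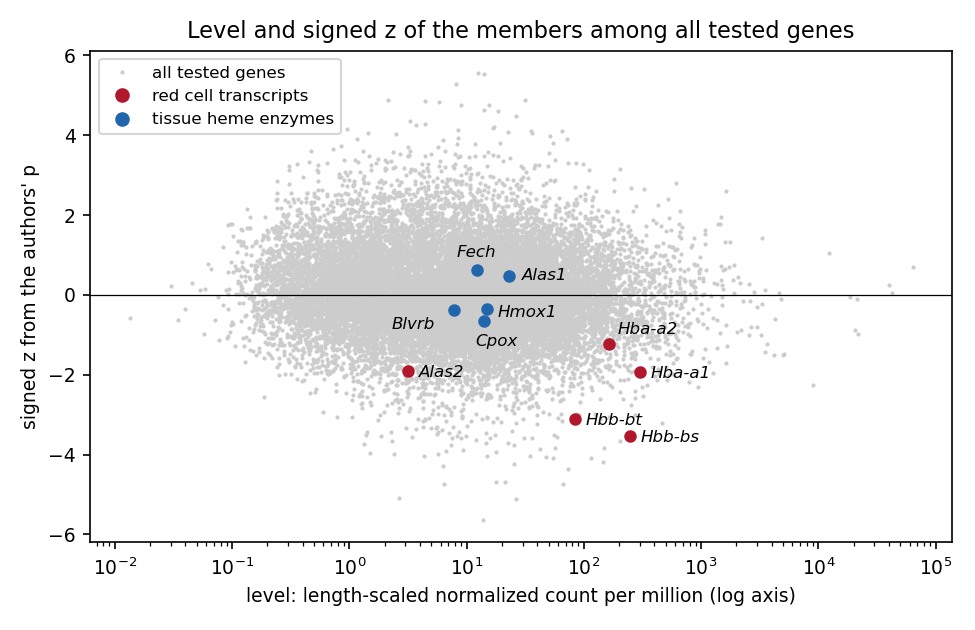
Length-scaled level (x axis, log scale, all genes summing to 1000000) against the signed z of the authors' p (y axis) for all tested genes (grey), the red cell transcripts (red) and the other heme enzymes (blue). The globins combine high levels, from 83.8 to 301, with negative z, and the enzymes in blue lie near 0.

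Among the heme synthesis enzymes not restricted to red cells, no difference was detected. Alas1 (ENSMUSG00000032786), the rate-limiting housekeeping enzyme, averaged 1210 normalized counts in the authors' deposited table (adjusted p = 0.983). Its value was 0.07 ± 0.14, with a 95% interval of -0.21 to 0.34. That interval does not overlap those of Hbb-bs (-1.09 to -0.31) and, narrowly, Hbb-bt (-0.98 to -0.22). It overlaps those of Hba-a1 (-1.08 to 0.01), Hba-a2 (-0.86 to 0.19) and Alas2 (-1.47 to 0.02). The genes were not tested against each other. Cpox (ENSMUSG00000022742), which oxidizes coproporphyrinogen, had -0.10 ± 0.15 (interval -0.39 to 0.19), at 790.6 normalized counts in the authors' deposited table (adjusted p = 0.974). Fech (ENSMUSG00000024588), ferrochelatase, which inserts the iron, had 0.09 ± 0.14 (interval -0.18 to 0.36), at 1445 normalized counts in the authors' deposited table (adjusted p = 0.975). Among all 9 enzymes of the pathway, 6 were negative and 3 positive, none was called, and the median was -0.10. After Alas2, the enzyme with the lowest p was Uros, uroporphyrinogen III synthase, with -0.32 ± 0.18. Urod, a decarboxylase of the pathway, had -0.13 ± 0.14.

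Heme breakdown gave values near 0 as well. Hmox1 (ENSMUSG00000005413), the inducible heme oxygenase, had -0.08 ± 0.24 (interval -0.56 to 0.39), at 220.3 normalized counts in the authors' deposited table (adjusted p = 0.991). Blvrb (ENSMUSG00000040466), a biliverdin and flavin reductase, had -0.09 ± 0.25 (interval -0.58 to 0.39), at 183.3 normalized counts in the authors' deposited table (adjusted p = 0.989). Of the other breakdown enzymes, the constitutive oxygenase Hmox2, the most abundant of the 4 breakdown enzymes at a length-scaled level of 122, had 0.13 ± 0.14, and Blvra, the main biliverdin reductase of adult tissue, had -0.16 ± 0.21. The intervals of Hmox1 and Blvrb, reaching down to -0.56 and -0.58, overlap those of every red cell transcript. Among these are Hbb-bs (-1.09 to -0.31), Hbb-bt (-0.98 to -0.22) and Alas2 (-1.47 to 0.02). The genes were not tested against each other. No value per library could be recovered for either gene.

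Genes that move heme and its precursors did not pass either. Of 14 transport and heme-binding genes, 10 were negative and 4 positive, none was called, and the median was -0.08. Hebp1, a heme-binding protein, had the lowest p, with -0.39 ± 0.19 (adjusted p = 0.701 in the authors' deposited table). Flvcr2, a transporter of the blood-brain barrier endothelium, had 0.80 ± 0.50. Its reads were 34, 69 and 15 in P1, P2 and P3, against 30, 38 and 14 in N1, N2 and N3, so that P2 stood apart. Pgrmc1, a heme-binding membrane protein, had 0.27 ± 0.19, and Abcg2, a porphyrin exporter of the vessel wall, 0.28 ± 0.23.

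Genes that clear free hemoglobin and heme lay on the positive side, opposite to the globins, but none of the 4 was called. Hpx, hemopexin, which binds free heme, had 1.87 ± 0.74 (adjusted p = 0.443 in the authors' deposited table). Its reads were 101, 20 and 7 in P1, P2 and P3, against 21, 15 and 6 in N1, N2 and N3, so P1 held most of them. Without P1 the log2 ratio of the recovered counts was 0.45, against 1.76 with all 6 libraries. Hp, haptoglobin, which binds free hemoglobin, had 80, 11 and 4 reads in P1, P2 and P3, against 9, 21 and 9 in N1, N2 and N3. Its value was 1.35 ± 0.83 (adjusted p = 0.845 in the authors' deposited table), and without P1 the log2 ratio was -0.44, against 1.26 with all 6 libraries, a turn of direction. Cd163, the macrophage receptor for haptoglobin-bound hemoglobin, was spread more evenly, with 27, 48 and 14 reads in P1, P2 and P3, against 20, 21 and 9 in N1, N2 and N3. As normalized counts its P libraries lay at 22.6 to 45.5 and its N libraries at 11.9 to 17.2, with no overlap, where 13.4% of the randomly drawn genes of like level had none, and its value was 1.14 ± 0.52 (adjusted p = 0.621 in the authors' deposited table). Lrp1, the receptor of hemopexin-bound heme, had 0.09 ± 0.19. Meningeal and choroid plexus markers were positive beside these genes, and their part in these values was not tested.

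**Figure D4:**
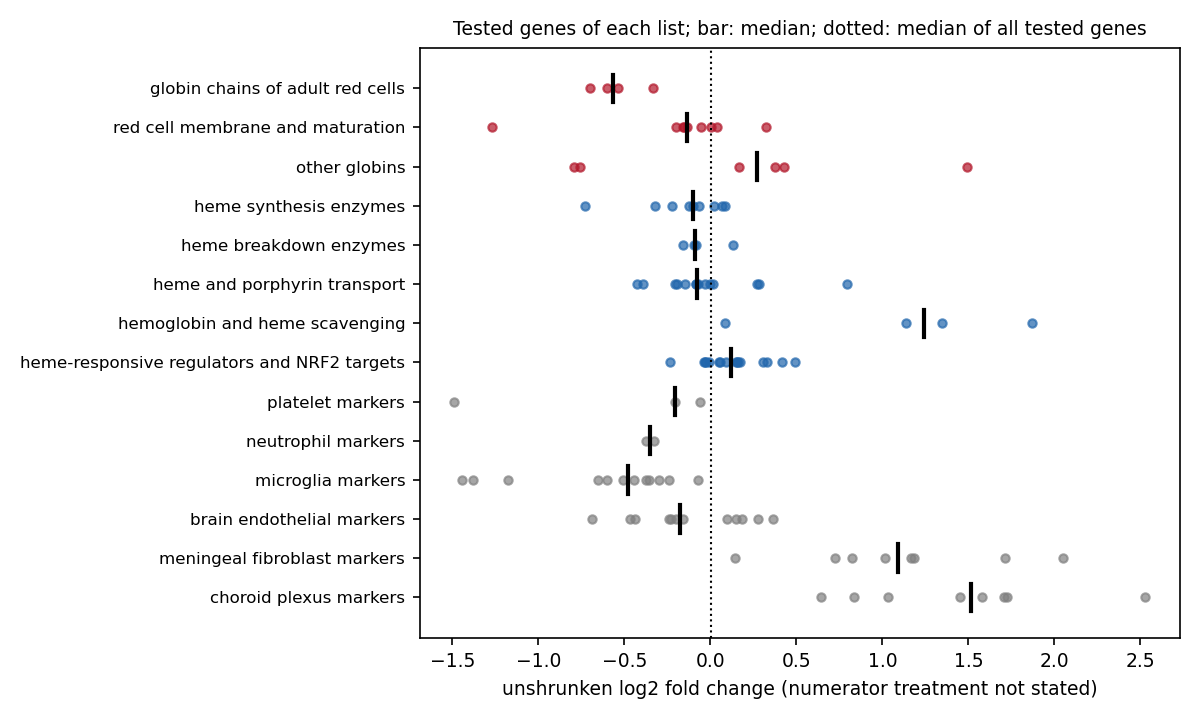
Unshrunken log2 fold change (x axis) of the tested genes of each list (points), with list medians (bars) and the median of all tested genes (dotted line), for globin and red cell lists in red, heme handling in blue and other cell types in grey. Adult globin chains have a median of -0.57, heme synthesis enzymes -0.10 and heme scavenging genes 1.24.

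Any part of promoters in the sign shared by the 5 red cell transcripts, or in the value of Alas1 near 0, was not tested. As a description of sequence, promoters of the globin genes and of both ALAS genes are printed. Each runs from 250 bases before to 50 bases after the start, 5′ to 3′ on the gene's strand, from RefSeq on GRCm38.p6. Capitals mark matches on either strand to AGATAA or TGATAA (forms of the GATA factor motif), CCACCC (bound by KLF factors), TATAA and CCAAT, and matches may overlap. Fech and Hmox1 have no entry in the table used. Hbb-bs is at chr7:103827879-103828178 (minus strand), Hbb-bt at chr7:103813874-103814173 (minus strand), Hba-a1 at chr11:32283422-32283721 (plus strand), Alas2 at chrX:150547167-150547466 (plus strand) and the upstream of the 2 starts of Alas1 at chr9:106247905-106248204 (minus strand).
Hbb-bs: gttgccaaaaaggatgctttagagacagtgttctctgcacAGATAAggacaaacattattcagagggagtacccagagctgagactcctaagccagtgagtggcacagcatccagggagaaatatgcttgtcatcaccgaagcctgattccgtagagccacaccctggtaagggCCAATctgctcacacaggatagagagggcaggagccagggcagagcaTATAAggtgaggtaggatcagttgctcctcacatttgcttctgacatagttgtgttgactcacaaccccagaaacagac
Hbb-bt: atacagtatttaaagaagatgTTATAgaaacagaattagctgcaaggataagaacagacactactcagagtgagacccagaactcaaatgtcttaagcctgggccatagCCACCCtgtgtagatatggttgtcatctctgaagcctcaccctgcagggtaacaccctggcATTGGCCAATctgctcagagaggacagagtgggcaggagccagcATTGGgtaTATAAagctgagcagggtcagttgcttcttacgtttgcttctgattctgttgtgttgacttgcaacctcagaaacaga
Hba-a1: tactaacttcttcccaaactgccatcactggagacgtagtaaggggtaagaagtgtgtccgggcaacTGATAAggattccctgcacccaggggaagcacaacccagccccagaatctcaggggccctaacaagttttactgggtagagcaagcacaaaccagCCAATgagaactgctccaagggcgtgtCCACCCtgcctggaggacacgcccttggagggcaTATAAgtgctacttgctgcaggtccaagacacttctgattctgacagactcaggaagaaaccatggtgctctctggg
Alas2: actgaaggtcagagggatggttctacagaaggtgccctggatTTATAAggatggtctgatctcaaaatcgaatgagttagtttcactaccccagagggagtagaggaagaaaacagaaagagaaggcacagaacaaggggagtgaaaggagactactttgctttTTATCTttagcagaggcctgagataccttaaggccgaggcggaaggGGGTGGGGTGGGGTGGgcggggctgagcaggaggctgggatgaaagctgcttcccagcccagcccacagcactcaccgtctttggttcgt
Alas1: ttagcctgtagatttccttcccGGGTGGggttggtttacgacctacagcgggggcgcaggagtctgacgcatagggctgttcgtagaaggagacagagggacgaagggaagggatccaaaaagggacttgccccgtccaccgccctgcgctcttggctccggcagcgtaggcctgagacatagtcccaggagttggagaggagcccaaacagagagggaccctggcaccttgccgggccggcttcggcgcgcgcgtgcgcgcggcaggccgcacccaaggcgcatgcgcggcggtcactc
The Hba-a2 promoter shares an identical run of 297 bases with that of Hba-a1. The 3 globin promoters shown each had TATAA on the gene's strand, at -29 in Hbb-bs, -28 in Hbb-bt and -27 in Hba-a1, and CCAAT on that strand, at -76, -75 and -88. Over all 32851 promoters of the table, 24.9% hold TATAA and 37.4% hold CCAAT, counted on either strand and anywhere in the window. The letters AGATAA occurred in Hbb-bs and Alas2, and TGATAA in Hba-a1, where 11.2% and 9.05% of all promoters hold them. Both also occurred in the promoter of Cpox, a member with a value near 0, at 5 for AGATAA and -86 for TGATAA, so these letters were not limited to the red cell members. CCACCC occurred in Hbb-bt, Hba-a1, Alas2 (3 overlapping matches) and the printed start of Alas1, and in 31.5% of all promoters. It also occurred at both starts of Blvrb, a member with a value near 0, and not at the other Alas1 start. Only these exact letters were searched, so a promoter without a match, such as that of Hbb-bs for CCACCC, is not shown to lack binding sites. These matches describe the letters in the window and were not tested for binding.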

How the data were processed

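Stranded mRNA libraries of 6 hippocampal samples were read as 150 bp pairs, trimmed with fastp, aligned with HISAT2 and counted with featureCounts, per the labels' protocols. The submitters' processing notes name DESeq2 1.28.0. Build, annotation, strand setting and the kind of test are not stated. Per gene, the deposited table holds a mean signal (counts over size factors, averaged over libraries), a log2 fold change with its error, which its values show to be shrunken, and the authors' p-value and adjusted p-value. Of its 55471 IDs, 55144 matched a table of gene names.

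No counts per library were used, so the planned edgeR test gave way to the test fixed as its substitute, the authors' adjusted p under 0.05. Signed z is the normal quantile of p. Unshrunken values assume a normal likelihood and a Cauchy prior of scale 0.0357, taken from the lowest genes, and rest on that form. Whole reads were recovered for means under 70 where exactly 1 combination over the 6 libraries gave the deposited mean within its rounding. The side of each library was read from the sign of 2963 genes with 1 read. That grouping was added after the data were seen, and no test uses it. For 149 genes drawn at means of 20 to 40, both routes to the log2 ratio differed by a median of 0.022. Scripts were tested on simulated data.

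Members and lists were chosen with earlier results of these data known. All members are named, with every called gene of a list or else up to 4 genes of lowest p, and some genes of these lists are not reported here. Sptb, Klf1, Epb42, Rhag, Gata1, Trim10, Hbb-y, Hba-x, Hbb-bh1, Hbb-bh2, Mb, Fth1 and Eif2ak1 were added after their values were seen. Genes with a similar pattern could not be sought without values per library. Software was Python 3.11.15 with pandas 2.3.3, numpy 2.4.6, matplotlib 3.10.9 and scipy 1.17.1.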

Additional observations from a re-analysis of the deposited data

How the results depend on the processing

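No member passed the authors' adjusted p of 0.05, nor with the adjustment run over every gene with a p or over means of 10 and more. Dividing z by its SD of 1.09 or adding a 2-fold minimum is only stricter, so neither could add a member. At an adjusted p under 0.1, 1 member passed (Hbb-bs), and at an unadjusted p under 0.05, 2 passed (Hbb-bs and Hbb-bt). Of all tested genes, 61 were called, against 116 at 0.1, 1267 unadjusted, 19 with z divided by its SD and 35 with the 2-fold minimum. The sign of each member is that of the deposited fold change by construction, so halving or doubling the prior's scale could not turn it. Subtracting the median of all tested genes, 0.0026, could not either, since every member lay farther from 0 than that. Sizes depend on the scale: Hbb-bs had -0.22 with it halved and -2.60 with it doubled, while Hbb-bt had -0.60 and -0.59. The other 8 members lay nearer to 0 under both, Hba-a1 at -0.14 halved and -0.0044 doubled, Hba-a2 at -0.083 and -0.0029, Alas2 at -0.18 and -0.0032, and the 5 enzymes not restricted to red cells within 0.023 of 0. The scale was compared with recovered reads for 102 genes at means of 20 to 40 with back-calculated values above 0.2 in size. There the back-calculated value divided by that from reads was 0.997 (median) as reported, 0.249 halved and 0.0028 doubled. The adult globin chains, at means of 500 to 2073, lie above that range, so their sizes were not checked this way. With the deposited shrunken values, list medians were -0.0085 for adult globin chains and 0.0019 for scavenging genes.

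Leaving out 1 library at a time (added after seeing the data), log2 ratios ran from -1.0 to -0.46 for Alas2, -1.46 to -0.93 for Slc4a1, -0.44 to 1.73 for Hp, 0.45 to 2.19 for Hpx and 0.72 to 1.3 for Cd163. The direction of Hp turned without P1, which held most of its reads. Count models, filters, other normalizations and tests without a library need counts of all genes and were not run. No paired analysis was possible because the table carries no values per sample. Without values per library for the globins, Hmox1 and Blvrb, 1 library's part in them could not be seen.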

Other observations

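Globin genes other than the adult red cell chains had values of both signs. Neuroglobin (Ngb) had 0.43 ± 0.40 and cytoglobin (Cygb), an oxygen-binding protein of fibroblast-like and neuronal cells, 0.17 ± 0.15, with length-scaled levels of 6.96 and 106. The theta globin gene Hbq1a had 4, 26 and 3 reads in libraries P1, P2 and P3, against 4, 7 and 3 in N1, N2 and N3, so its value of 1.49 ± 1.0 came with 1 high library. Androglobin (Adgb) had -0.76 ± 0.55 and myoglobin (Mb), the oxygen store of muscle, -0.79 ± 0.92. Embryonic Hbb-y had 2, 2 and 1 reads in P1, P2 and P3, against 0, 1 and 0 in N1, N2 and N3, and Hba-x, Hbb-bh1 and Hbb-bh2 are listed at 0. Of the 10 genes in this list 6 were tested, 4 positive and 2 negative, and none was called.

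Regulators that respond to heme and targets of the antioxidant factor NRF2 were positive in 11 of 16 genes, with a median log2 fold change of 0.12 and none called. The lowest p values were those of Gclm, a subunit of the glutathione-making ligase, with 0.30 ± 0.17, the quinone reductase Nqo1 with 0.49 ± 0.29, Mafk, a small MAF partner protein, with 0.42 ± 0.25, and Bach1, the heme-binding repressor of Hmox1, with 0.33 ± 0.23. Fth1, the heavy chain of ferritin, had -0.24 ± 0.19, and Eif2ak1, the heme-regulated kinase, -0.03 ± 0.13.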
